A study of Rattus norvegicus with 6 samples.

Results

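The genes described here are the TAM receptors Axl, Mertk and Tyro3 and their ligands Gas6 and Pros1, 5 of the 30560 genes counted. They were chosen by symbol, with earlier results of these data known. Their identifiers are ENSRNOG00000020716 (Axl), ENSRNOG00000017319 (Mertk), ENSRNOG00000058586 (Tyro3), ENSRNOG00000018233 (Gas6) and ENSRNOG00000048723 (Pros1). They were followed in nuclei of rat brain after permanent middle cerebral artery occlusion (MCAO), a model of ischemic stroke in which a filament closes the artery on the right side. The 11 animals were male Wistar rats aged 12 weeks, taken 48 h after the operation, and Sham rats went through the same operation except that no filament was inserted. Each of the 6 libraries pooled nuclei of several rats from 1 hemisphere: Sham L and Sham R came from the same 4 Sham rats, mMCAO contra (left) and mMCAO ipsi (right) from 3 rats whose infarction was moderate, and sMCAO contra (left) and sMCAO ipsi (right) from 4 rats whose infarction was severe. The groups compared are Sham, MCAO contra and MCAO ipsi, with 2 libraries in each, and pairs of values are given below in the order L, R for Sham and moderate, severe for MCAO. By this layout the replicates of Sham are both hemispheres of the same rats, and those of the MCAO groups differ in infarct severity. The p-values below therefore measure the spread between such libraries and not between single animals.

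Axl, Mertk and Tyro3 are receptor tyrosine kinases at the cell surface. Gas6 binds each of them, and protein S, the product of Pros1, binds Mertk and Tyro3. Through a domain carboxylated with vitamin K, both ligands also bind phosphatidylserine on dying cells. A ligand so bridges a receptor-bearing cell to what it engulfs. Mertk is known for engulfment of debris and synapses by microglia and astrocytes, Axl for its presence on activated phagocytes, and Tyro3 mainly from neurons and myelinating cells.

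The libraries held 8774 to 14508 nuclei and 33012945 to 52513380 unique molecular identifiers (UMIs, counted transcripts), and 69967 nuclei remained after the study's limits and removal of likely doublets. A nucleus was placed in a class by the density of UMIs of that class's marker genes. In nuclei gated as oligodendrocyte precursor cells (OPCs) the OPC markers summed to 5834 counts per 1000000 UMIs (CPM), in astrocytes the astrocyte markers to 14930 CPM, and in oligodendrocytes their markers to 15400 CPM. Markers of neurons were nevertheless at 6354 CPM in the OPCs and 2103 CPM in the astrocytes, against 19830 CPM in glutamatergic neurons. Classes are named for these markers, and the plots write them as OPC-like and so on. In microglia the microglial markers summed to 2334 CPM and the macrophage markers to 165 CPM, and in macrophages these values were 343 and 3722 CPM. OPCs numbered 139 and 99 in Sham, 307 and 205 in MCAO contra, and 400 and 355 in MCAO ipsi. Microglia numbered 10 and 8 in the Sham libraries, so no class of myeloid cells could be compared with Sham. The sMCAO ipsi library stood apart from the other 5, with 14.6% of its nuclei glutamatergic against 32.5% to 36.3% elsewhere, and with a median of 2343 UMIs per astrocyte against 600 to 1283.5, so results are also given without it. Of 70713 distinct cell barcodes, 3022 occurred in more than 1 library and at most 281 in any pair.

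Of the receptors, Axl rose in OPCs and Mertk fell in astrocytes of the infarcted hemispheres, and their promoters are shown for that reason, as the 250 bases before the start of transcription in RefSeq (build GRCr8). The Axl sequence lies on the minus strand at chr1:90424010-90424259 and the Mertk sequence on the plus strand at chr3:136392324-136392573. Capitals mark the GC box GGGCGG, read on either strand, a motif bound by Sp1-type factors.
Axl: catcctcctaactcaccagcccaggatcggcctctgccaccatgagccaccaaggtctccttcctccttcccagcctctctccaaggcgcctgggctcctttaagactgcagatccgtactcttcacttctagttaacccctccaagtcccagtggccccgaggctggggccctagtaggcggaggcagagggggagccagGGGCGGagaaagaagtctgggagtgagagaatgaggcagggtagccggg
Mertk: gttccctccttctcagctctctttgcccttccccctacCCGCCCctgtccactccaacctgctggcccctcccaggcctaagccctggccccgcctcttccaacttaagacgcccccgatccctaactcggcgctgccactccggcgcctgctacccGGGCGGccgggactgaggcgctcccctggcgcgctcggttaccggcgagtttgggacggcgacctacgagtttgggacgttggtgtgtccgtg
The Axl promoter held 1 GC box and the Mertk promoter 2, and 32.4% of 27457 rat promoters of this length held at least 1. Their GC contents were 61.6% and 68.0%, against a median of 52.0% over all promoters. The AP-1 motif TGANTCA, its own reverse complement, occurred in neither, and in 6.36% of all promoters. Among the other genes, Tyro3 held 6 GC boxes and 1 AP-1 motif, Gas6 3 GC boxes and Pros1 3. These matches describe letters in a window and no binding was measured.

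Over whole libraries, Axl, Mertk and Pros1 were highest in the infarcted hemispheres, and Tyro3 and Gas6 were nearly level. Axl stood at 1.05 and 1.15 CPM in Sham, at 1.81 and 1.96 CPM in MCAO contra, and at 7.65 and 29.5 CPM in MCAO ipsi. Mertk stood at 11.8 and 11.5 CPM in Sham, 20.6 and 22.3 CPM in MCAO contra, and 42.2 and 75.1 CPM in MCAO ipsi. Pros1 ran through 2.62 and 2.30, 4.17 and 5.89, and 14.7 and 29.98 CPM in the same order. Tyro3 lay between 29.0 and 36.6 CPM and Gas6 between 35.3 and 41.0 CPM in all libraries. In such whole-library values, more cells of a type and more RNA per cell cannot be told apart, and the myeloid share of nuclei moved with them. Myeloid nuclei held 1.27% and 1.11% of the Mertk UMIs in Sham, 21.9% and 14.6% in MCAO contra, and 46.8% and 65.5% in MCAO ipsi. The values below are therefore taken within classes.

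**Figure D1:**
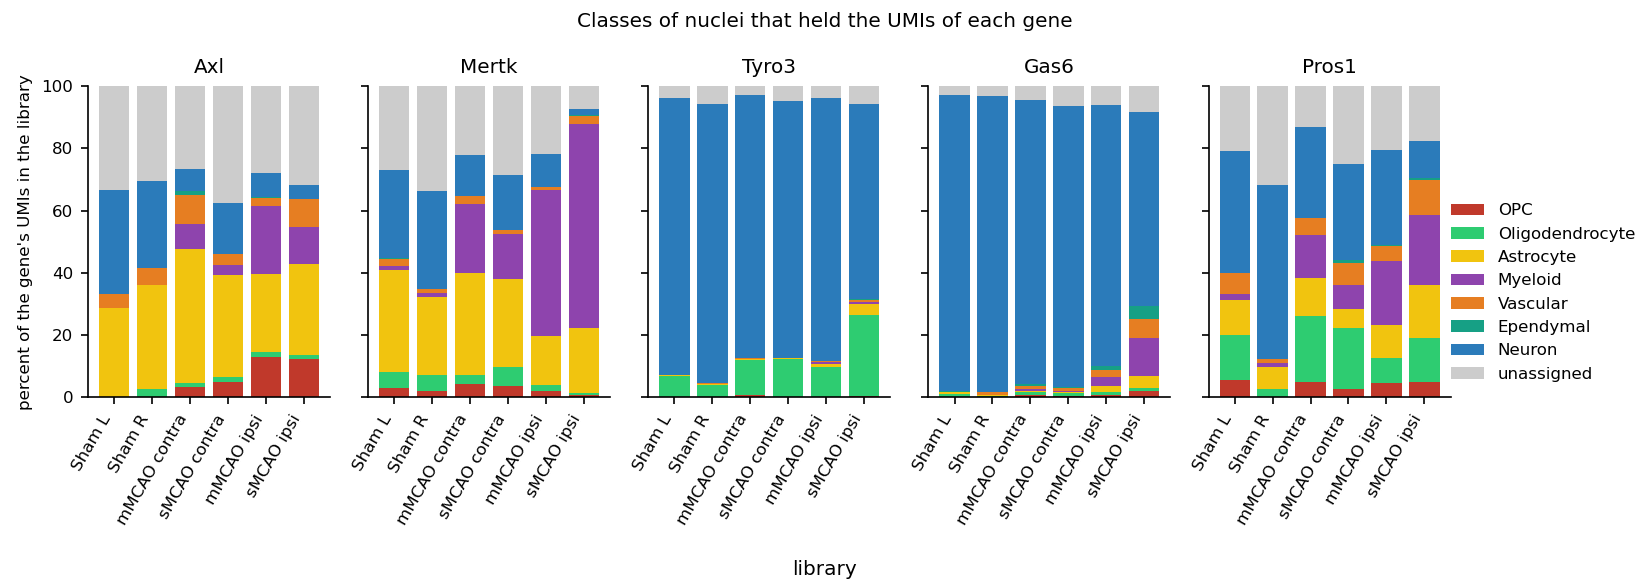
Percent of all UMIs of each gene found in each class of nuclei, as stacked bars for the 6 libraries. Neurons held 62.4% to 95% of Gas6 UMIs and 62.6% to 89.8% of Tyro3 UMIs, and also most UMIs of all genes. The myeloid share of Mertk rose to 65.5% in sMCAO ipsi.

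Within classes, edgeR was run on UMIs summed per class and library, and a change was called where the adjusted p was under 0.05 and the log2 fold change reached 0.6 in either direction. Between MCAO ipsi and Sham, 23 of 30 pairs of gene and class passed the filter on low counts, and 4 were called, 3 higher and 1 lower in MCAO ipsi. Between MCAO ipsi and MCAO contra, 27 of 35 pairs passed and 4 were called, 2 in each direction. These comparisons share the MCAO ipsi libraries. Where a library is left out below, 1 library of its group remains, and its spread is assumed to be that of the other groups. With 1 MCAO ipsi library left out, the adjusted p-values hold no spread between moderate and severe infarcted libraries. Without mMCAO ipsi, which leaves sMCAO ipsi as the only infarcted library and assumes that it varies like the other groups, the counts of calls were 7 and 9, and they were 2 and 2 without Sham L and without mMCAO contra, in that order. For MCAO ipsi against Sham, the share of all genes called was 7.27% in OPCs (3.16% higher, 4.11% lower), 16.4% in astrocytes (8.65% higher, 7.79% lower), 2.88% in oligodendrocytes (0.793% higher, 2.09% lower) and 6.32% in glutamatergic neurons (3.82% higher, 2.49% lower). It was 2.57% in GABAergic neurons (1.84% higher, 0.729% lower) and 1.38% in vascular cells (0.296% higher, 1.09% lower). For MCAO ipsi against MCAO contra the share was 9.51% in OPCs (4.71% higher, 4.79% lower), 12.4% in astrocytes (7.26% higher, 5.15% lower) and 3.41% in glutamatergic neurons (1.81% higher, 1.6% lower). It was 0.675% in GABAergic neurons (0.491% higher, 0.184% lower), 0.0247% in vascular cells, all of it lower, and 0% in oligodendrocytes and microglia, where 13.2% and 5.89% of genes had an unadjusted edgeR p under 0.05. Between MCAO contra and Sham, neither edgeR nor DESeq2 called any of the 23 pairs tested, where edgeR called 0% of all genes in the glial and vascular classes, 0.00679% in glutamatergic and 0.192% in GABAergic neurons. At an unadjusted p under 0.05, 7.58% of all genes in OPCs, 8.86% in astrocytes and 7.93% in oligodendrocytes differed in that comparison. The share was 14.6% in glutamatergic neurons, 14.2% in GABAergic neurons and 4.91% in vascular cells. Of the 23 pairs, 2, both of them Pros1, had an unadjusted edgeR p under 0.05 (0.0294 in oligodendrocytes and 0.0209 in glutamatergic neurons). Beside these shares that count is not read as a result.

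Axl had no UMI in the OPCs of either Sham library and was present in those of both infarcted hemispheres. It was counted with 0 and 0 UMIs in the OPCs of Sham, 3 and 3 UMIs in those of MCAO contra, and 40 and 107 UMIs in those of MCAO ipsi. As levels this gave 0 and 0 CPM, 7.69 and 13.03 CPM, and 89.5 and 148 CPM. The MCAO ipsi libraries lay above all 4 others, while 0 UMIs over both Sham libraries still allow up to 14.3 CPM (3 counts of 209618 UMIs), above the pooled 9.67 CPM of MCAO contra, so Sham and MCAO contra were not separated at this depth. Axl rose in MCAO ipsi against MCAO contra by 3.49 ± 0.46 on the log2 scale (SE; 11.3-fold, edgeR adjusted p = 9.06e-05). Against Sham it was also called (edgeR adjusted p = 0.000515), where the pooled level of 126 CPM was 8.78-fold the limit of 3 counts. Without sMCAO ipsi the change against MCAO contra was 3.08 (edgeR adjusted p = 0.000135).

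The share of OPCs with an Axl UMI rose as well when each nucleus was thinned to 500 UMIs. It was 0% in both Sham libraries (exact binomial 95% upper limits 2.62% and 3.66%), 0.652% (0.0790% to 2.33%) and 0.976% (0.118% to 3.48%) in MCAO contra, and 2.75% (1.38% to 4.87%) and 6.48% (4.15% to 9.56%) in MCAO ipsi. Unthinned, these shares were 0%, 0%, 0.652%, 1.46%, 8.25% and 19.4%. Glutamatergic neurons, which should lack Axl, had thinned shares of 0% in mMCAO ipsi and sMCAO ipsi (upper limits 0.0886% and 0.306%) and unthinned shares of 0.192% and 0.415%, at median depths of 4891.5 and 8522 UMIs against 981.5 and 1764 UMIs in OPCs. Oligodendrocytes, the mature cells of the same lineage, had thinned shares of 0.173% and 0.295% and unthinned shares of 0.431% and 0.591% there, at median depths of 699 and 1108 UMIs. The Axl level in CPM was 16.9-fold (95% counting interval 6.65 to 54.7) higher in OPCs than in oligodendrocytes of mMCAO ipsi and 25.2-fold (13.2 to 54.1) higher in sMCAO ipsi. Intervals of this kind hold counting error only. The median OPC held no UMI of the myeloid markers in any library, and the summed myeloid markers ran from 131 to 322 CPM in OPCs, 131 and 301 CPM in Sham and 322 and 198 CPM in MCAO ipsi. Other lists moved with Axl in OPCs. Reactive astrocyte genes summed to 30.8 and 25.05 CPM in Sham, 51.2 and 95.5 CPM in MCAO contra, and 268.5 and 494.7 CPM in MCAO ipsi, and macrophage markers to 23.1 and 0 CPM, 35.9 and 21.7 CPM, and 89.5 and 117.5 CPM. The astrocyte markers themselves were at 501 and 626 CPM in Sham, 566 and 521 CPM in MCAO contra, and 570.5 and 693.7 CPM in MCAO ipsi. The part of other cells' RNA in the Axl of OPCs was not tested.

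**Figure D2:**
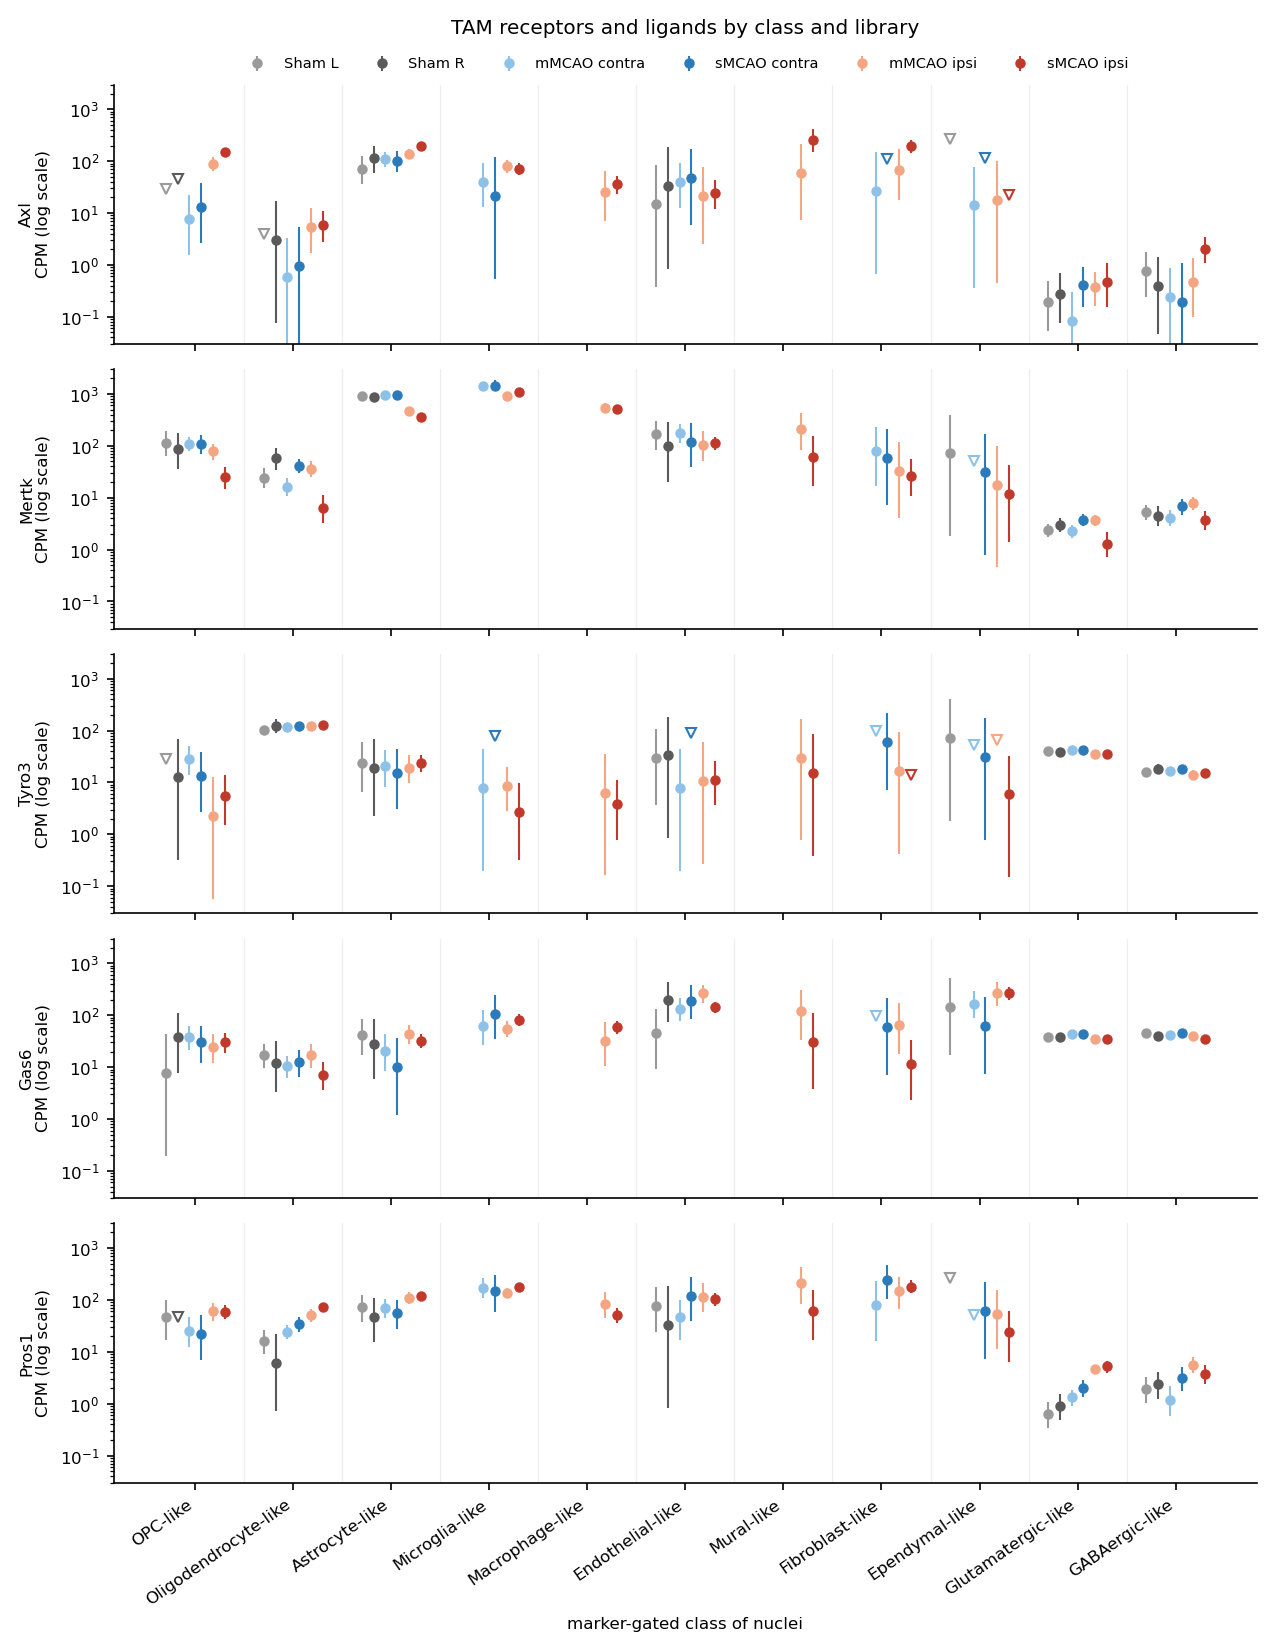
CPM of each gene per class and library on a log axis, with exact Poisson 95% intervals as bars and open triangles at the upper 95% limit where no UMI was counted, for classes with at least 20 nuclei in a library. Axl in OPCs moves from no UMI in both Sham libraries to 89.5 and 148 CPM in MCAO ipsi, while Mertk in astrocytes falls from 926 and 863 CPM to 468 and 356 CPM.

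Among infarcted OPCs, Axl was higher in nuclei with UMIs of cell-cycle genes. In mMCAO ipsi it stood at 190 CPM in the 105 OPCs with at least 2 cell-cycle UMIs and at 21.1 CPM in the 252 with 0, a ratio of 8.97 (95% counting interval 3.46 to 29.6), at median depths of 1355 and 871 UMIs. In sMCAO ipsi the values were 235 CPM in 127 and 63.5 CPM in 194 OPCs, a ratio of 3.70 (2.26 to 6.31), at median depths of 2293 and 1599.5 UMIs. OPCs with exactly 1 cell-cycle UMI, 43 in mMCAO ipsi and 34 in sMCAO ipsi, are in neither set. The cell-cycle genes summed to 331 and 150 CPM in the OPCs of Sham L and Sham R, 351 and 443 CPM in MCAO contra, and 1738 and 1928 CPM in MCAO ipsi, so they moved with Axl across the libraries. Sub-cluster 10 held 2.88% and 1.01% of the OPCs in Sham, 2.93% and 3.902% in MCAO contra, and 31% and 41.1% in MCAO ipsi. In that sub-cluster Axl was at 173 CPM in mMCAO ipsi and 208 CPM in sMCAO ipsi, and in sub-cluster 4, which held 48.0% and 40.8% of the OPCs there, at 16.6 and 38.6 CPM. With all nuclei bearing a cell-cycle UMI left out, Axl in OPCs had too few UMIs for the filter and was not tested. The part of cell-cycle entry in the higher level of the whole class was not tested.

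**Figure D3:**
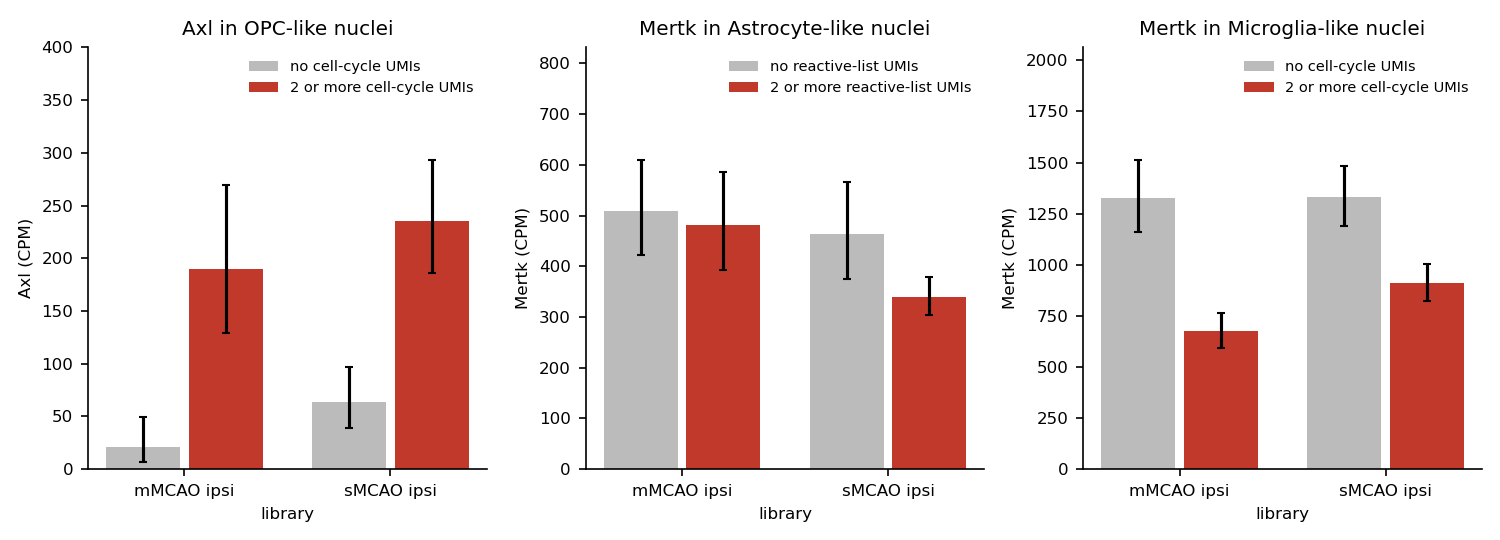
CPM of Axl in OPCs and of Mertk in astrocytes and microglia of the MCAO ipsi libraries, in nuclei with 0 and with at least 2 UMIs of cell-cycle genes (OPCs, microglia) or reactive genes (astrocytes), with exact Poisson 95% intervals as bars. Axl in OPCs stood at 21.1 against 190 CPM in mMCAO ipsi, and Mertk in microglia at 1327 against 673 CPM.

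Astrocytes carried Axl in every library, at 71.7 and 114 CPM in Sham, 110 and 99.8 CPM in MCAO contra, and 137 and 197 CPM in MCAO ipsi. Both MCAO ipsi libraries lay above the other 4. The difference of 0.89 ± 0.32 on the log2 scale against Sham (edgeR adjusted p = 0.0768) and of 0.65 ± 0.26 against MCAO contra (edgeR adjusted p = 0.133) did not pass the threshold. Without mMCAO ipsi, which leaves 1 infarcted library, these were 1.11 and 0.85. With each of the libraries left out in turn they ran from 0.56 to 1.17 and from 0.36 to 0.85. With classes taken from clusters the difference from Sham was 1.16 (edgeR adjusted p = 0.0224). The change of Axl was larger in OPCs than in astrocytes, by 2.85 ± 0.54 on the log2 scale between MCAO ipsi and MCAO contra (edgeR interaction, adjusted p = 0.00202, with 2.43% of 7192 genes called). It was not separated from the change in oligodendrocytes (0.79 ± 1.89, edgeR interaction, adjusted p = 0.961) or glutamatergic neurons (2.49 ± 1.19, edgeR interaction, adjusted p = 0.329). Oligodendrocytes held 0 and 1 Axl UMIs in Sham, 1 and 1 in MCAO contra, and 5 and 10 in MCAO ipsi. Pooled over Sham, Axl was at 88.0 CPM in astrocytes and without a UMI in OPCs. In MCAO ipsi the levels were closer, and Axl in OPCs was 0.655 times (0.435 to 0.970) that in astrocytes in mMCAO ipsi and 0.749 times (0.592 to 0.943) in sMCAO ipsi.

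The remaining classes held little or variable Axl. In microglia it was at 39.5 and 21.2 CPM in MCAO contra and 80.3 and 70.6 CPM in MCAO ipsi, and although these did not overlap, the difference of 1.11 ± 0.49 on the log2 scale was not called (edgeR adjusted p = 0.785). In microglia edgeR called no gene at all, while 5.89% had an unadjusted p under 0.05. Macrophages of mMCAO ipsi and sMCAO ipsi held 25.5 and 35.7 CPM. In sMCAO ipsi, mural cells were at 261 CPM and fibroblasts at 193 CPM against 24.5 CPM in endothelial cells, ratios of 10.7 (4.71 to 25.2) and 7.89 (4.06 to 16.8) from 17, 51 and 11 UMIs. Glutamatergic neurons held 0.0832 to 0.467 CPM, and GABAergic neurons 0.194 to 2.04 CPM. By the mean over libraries the order was mural cells 161 ± 142 CPM (SD, n = 2), astrocytes 122 ± 42.8 CPM (n = 6), fibroblasts 71.5 ± 85.5 CPM (n = 4), microglia 52.9 ± 27.4 CPM (n = 4) and OPCs 43.0 ± 61.7 CPM (n = 6), and the range of every neighbour in this order overlapped the next. These means rest on unlike libraries, since mural cells entered from MCAO ipsi only and microglia without Sham. Within both MCAO ipsi libraries OPCs lay above microglia, at 89.5 against 80.3 CPM and 148 against 70.6 CPM.

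Mertk fell in astrocytes of the infarcted hemispheres. It stood at 926 and 863 CPM in Sham, 951 and 974 CPM in MCAO contra, and 468 and 356 CPM in MCAO ipsi, from 91 to 460 UMIs per library. The MCAO ipsi libraries lay below all others, which spanned 863 to 974 CPM. Mertk decreased by 1.16 on the log2 scale against Sham (SE 0.19; 2.24-fold lower, edgeR adjusted p = 0.00193) and by 1.27 against MCAO contra (SE 0.19; 2.41-fold lower, edgeR adjusted p = 0.00115). Without sMCAO ipsi, which leaves 1 infarcted library, the difference from Sham was -0.96. Thinned to 500 UMIs, 36.4% and 34.8% of astrocytes held a Mertk UMI in Sham, 33.4% and 32.0% in MCAO contra, and 19.3% (15.6% to 23.5%) and 16.5% (13.2% to 20.1%) in MCAO ipsi. Unthinned the shares were 47.8%, 42.2%, 48.8%, 47.5%, 39.4% and 45.0%, at median depths of 752, 600, 984.5, 859, 1283.5 and 2343 UMIs. Glutamatergic neurons had thinned shares of 0.0830% to 0.270%.

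The composition of the astrocytes changed beside Mertk. Genes of reactive astrocytes summed to 12.0 and 47.4 CPM in Sham, 121 and 190 CPM in MCAO contra, and 1025 and 1861 CPM in MCAO ipsi. Sub-cluster 5 held 94.7%, 93.2%, 85.2% and 86.3% of the astrocytes of Sham and MCAO contra and 39.1% and 20.2% of those of MCAO ipsi, where sub-cluster 7 held 56.2% and 76.2%. Mertk was lower in infarcted tissue within sub-cluster 5 too, at 971 and 905 CPM in Sham, 1056 and 1031 CPM in MCAO contra and 575 and 604 CPM in MCAO ipsi. In sub-cluster 7 it was at 417 and 312 CPM in MCAO ipsi. Astrocytes with at least 2 reactive UMIs held 0.947 times (0.7192 to 1.245) the Mertk of those with 0 in mMCAO ipsi and 0.733 times (0.581 to 0.932) in sMCAO ipsi, so a difference was seen beyond counting error in the severe library. Those with at least 2 cell-cycle UMIs held 0.581 times (0.420 to 0.791) and 0.352 times (0.276 to 0.445) the Mertk of those with 0. Depth differed too between these sets. For the cell-cycle genes the medians were 1981 against 1165.5 UMIs in mMCAO ipsi and 3800 against 1823.5 UMIs in sMCAO ipsi. For the reactive genes they were 1632 against 1078.5 UMIs and 2980 against 1652 UMIs. With the nuclei bearing cell-cycle UMIs left out, the difference of the class was -0.85 against Sham (edgeR adjusted p = 0.00541) and -0.94 against MCAO contra (edgeR adjusted p = 0.00371). Neuronal RNA fell across the same libraries, since neuron markers were at 5475 and 5074 CPM in astrocytes of Sham, 3062 and 3325 CPM in MCAO contra and 2005 and 1027 CPM in MCAO ipsi, and with free RNA subtracted the difference from Sham was -1.46 (edgeR adjusted p = 0.00257).

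In OPCs Mertk was at 116 and 87.7 CPM in Sham, 110.2 and 109 CPM in MCAO contra, and 78.3 and 24.9 CPM in MCAO ipsi, from 7 to 43 UMIs. It decreased by 1.31 on the log2 scale against MCAO contra (SE 0.38; 2.48-fold lower, edgeR adjusted p = 0.0292), and the difference of -1.22 from Sham was not called (edgeR adjusted p = 0.156). The call rested on the severe library, since without sMCAO ipsi the difference was -0.54 (edgeR adjusted p = 0.4), and it was also lost without mMCAO contra (-1.24, edgeR adjusted p = 0.181) and by DESeq2 (-1.21, adjusted p = 0.423). Without mMCAO ipsi the difference from Sham was called (-2.13, edgeR adjusted p = 0.00015), as it was with classes from clusters (-1.94, edgeR adjusted p = 0.00188). The changes of Mertk in OPCs and astrocytes differed by -0.07 ± 0.32 between MCAO ipsi and MCAO contra (edgeR interaction, adjusted p = 0.967). Neuron markers in OPCs were at 7404 and 6564 CPM in Sham, 6881 and 6795 CPM in MCAO contra and 6568 and 5584 CPM in MCAO ipsi. In oligodendrocytes Mertk held 24.4 and 58.0 CPM in Sham, 16.4 and 40.7 CPM in MCAO contra, and 36.1 and 6.45 CPM in MCAO ipsi. It was not called, and of the infarcted libraries only sMCAO ipsi lay below the others. With each of the libraries left out in turn, the difference ran from -2.36 to 0.04 against Sham. Against MCAO contra it ran from -2.02 to 0.39. The lowest value of each came without mMCAO ipsi, which leaves sMCAO ipsi as the only infarcted library.

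In the MCAO libraries microglia held more Mertk than any other named class with at least 20 nuclei, while myeloid nuclei that were neither microglia nor macrophages by their markers stood at 923 CPM in mMCAO ipsi. Levels in microglia were 1437 and 1442 CPM in mMCAO contra and sMCAO contra and 901 and 1100.0 CPM in mMCAO ipsi and sMCAO ipsi, and the 18 microglia of Sham held 9 UMIs, a pooled 570.1 CPM (exact Poisson 95% interval 260.7 to 1082) against 901.9 CPM (792.7 to 1022) in Sham astrocytes. The ranges did not overlap, but the difference of -0.55 ± 0.20 on the log2 scale (unadjusted p = 0.0314) had an edgeR adjusted p = 0.785. Microglia with at least 2 cell-cycle UMIs held 0.507 times (0.422 to 0.611) the Mertk of those with 0 in mMCAO ipsi and 0.684 times (0.589 to 0.794) in sMCAO ipsi. Median depths of these sets were 1162 against 643 UMIs in mMCAO ipsi and 1673 against 1014 UMIs in sMCAO ipsi. Macrophages were at 535.5 and 508 CPM, below microglia of the same library by 1.68-fold (1.33 to 2.14) in mMCAO ipsi and 2.17-fold (1.92 to 2.45) in sMCAO ipsi. By the mean over the libraries with at least 20 nuclei the order was microglia 1220.0 ± 266 CPM (SD, n = 4), astrocytes 756 ± 272 CPM (n = 6) and macrophages 522 ± 19.7 CPM (n = 2), whose ranges overlapped in turn, and macrophages lay above the range of the next class, mural cells with 136 ± 106 CPM (n = 2). The macrophage mean rests on MCAO ipsi only. In sMCAO ipsi macrophages lay above astrocytes, at 508 CPM (exact Poisson 95% interval 459 to 560) against 356 CPM (324 to 390). In mMCAO ipsi they were at 535.5 CPM (427 to 663) against 468 CPM (414 to 528), and the intervals overlapped. Neurons were lowest, with 1.31 to 3.80 CPM in glutamatergic and 3.77 to 7.92 CPM in GABAergic nuclei.

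**Figure D4:**
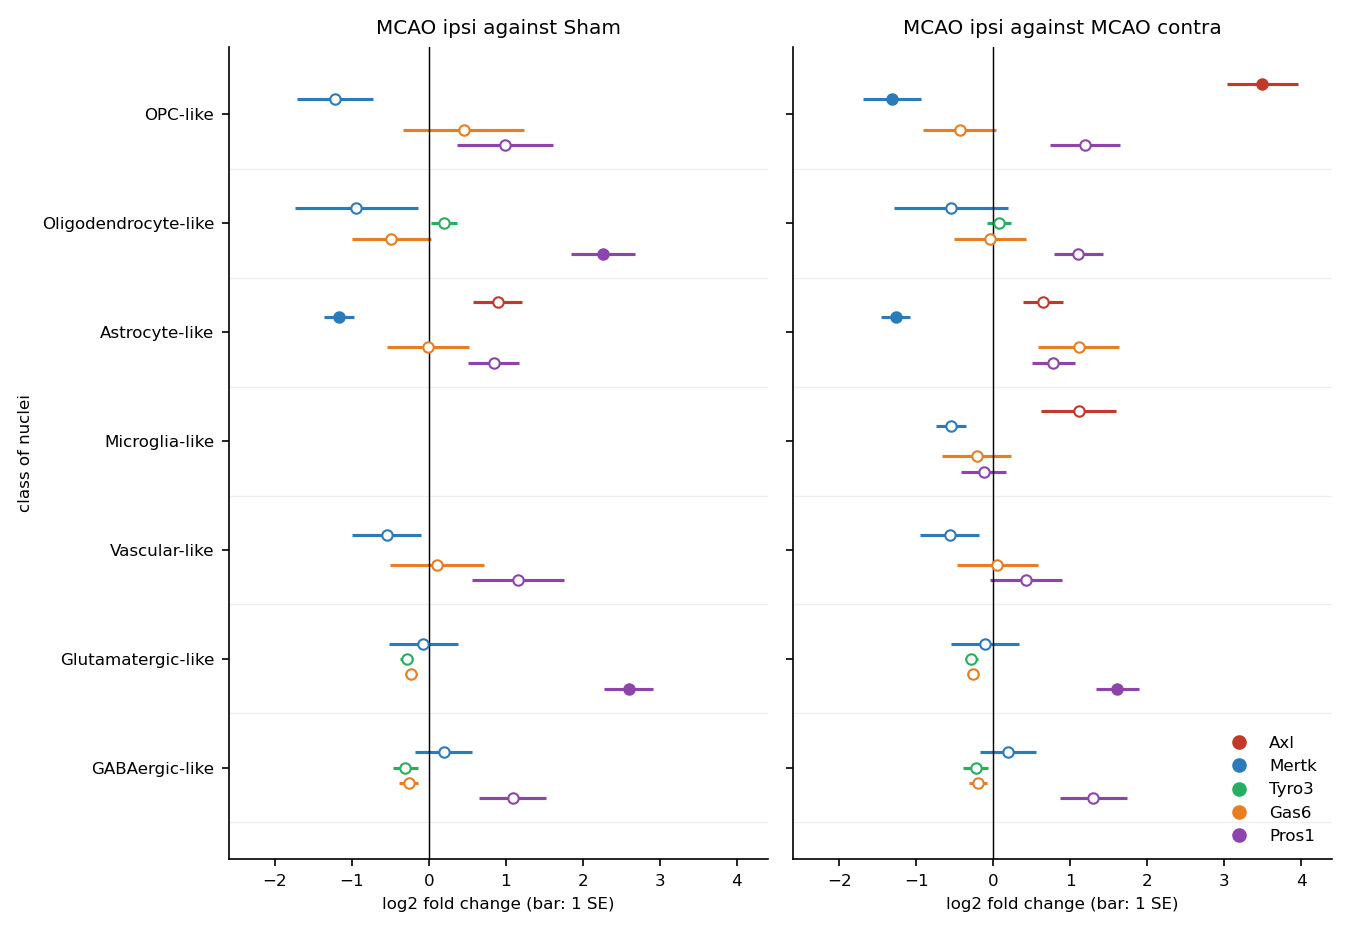
log2 fold changes of each gene per class for MCAO ipsi against Sham and against MCAO contra, with standard errors as bars and filled points for called changes. Axl in OPCs against Sham is left out because Sham held 0 UMIs, and Mertk in astrocytes sits at -1.16 and -1.27.

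Tyro3 was the receptor of oligodendrocytes and neurons and showed no called change. In oligodendrocytes it stood at 102 and 125 CPM in Sham, 115 and 124 CPM in MCAO contra, and 124 and 130 CPM in MCAO ipsi, so the groups overlapped. The differences were 0.20 ± 0.17 against Sham (edgeR adjusted p = 0.568) and 0.08 ± 0.16 against MCAO contra (edgeR adjusted p = 0.881). In glutamatergic neurons Tyro3 was at 40.7 and 38.1 CPM in Sham, 42.8 and 42.8 CPM in MCAO contra, and 34.6 and 34.7 CPM in MCAO ipsi. The MCAO ipsi libraries lay below the others, by -0.29 ± 0.08 against Sham (edgeR adjusted p = 0.0608) and -0.28 ± 0.08 against MCAO contra (edgeR adjusted p = 0.0787), which missed both limits. GABAergic neurons held 13.8 to 18.3 CPM and astrocytes 14.98 to 23.9 CPM. By the mean over libraries, oligodendrocytes with 120.1 ± 10.1 CPM (SD, n = 6) lay above the range of glutamatergic neurons with 38.9 ± 3.76 CPM (n = 6). The next class by mean, mural cells with 22.7 ± 10.4 CPM (n = 2), rested on 1 UMI in each library. Ependymal cells ranged from 0 to 71.8 CPM and fibroblasts from 0 to 59.35 CPM, and both ranges covered that of glutamatergic neurons. These 2 classes held at most 2 Tyro3 UMIs in a library. OPCs, the precursors of oligodendrocytes, held 0 and 1 Tyro3 UMIs in Sham, 11 and 3 in MCAO contra, and 1 and 4 in MCAO ipsi, too few to pass the filter. Microglia held 0 to 5 UMIs per library.

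Most UMIs of Gas6, which binds each of the receptors, lay in neurons, which also held most UMIs of all genes. Glutamatergic neurons held 38.5 and 38.7 CPM in Sham, 42.6 and 42.9 CPM in MCAO contra, and 34.8 and 35.5 CPM in MCAO ipsi, from 380 to 1024 UMIs. The MCAO ipsi libraries were the lowest, and the differences of -0.23 ± 0.08 from Sham (edgeR adjusted p = 0.0843) and -0.26 ± 0.08 from MCAO contra (edgeR adjusted p = 0.0778) were not called. GABAergic neurons held 34.6 to 45.0 CPM. Neurons together contributed 94.9% and 95% of the Gas6 UMIs in Sham, 91.1% and 90.3% in MCAO contra, and 83.9% and 62.4% in MCAO ipsi, where glutamatergic neurons made up 33.8% and 14.6% of nuclei. In CPM Gas6 was higher in endothelial cells, at 45.2 and 199 CPM in Sham from 3 and 6 UMIs, 132 and 192 CPM in MCAO contra, and 264 and 142 CPM in MCAO ipsi. Ependymal cells held 61.4 to 270 CPM, the latter values from 15 and 45 UMIs in mMCAO ipsi and sMCAO ipsi (270 and 266 CPM). The mean levels of ependymal cells, 182 ± 88.0 CPM (SD, n = 5), and endothelial cells, 163 ± 74.4 CPM (n = 6), did not differ beyond their spread. Microglia, with 76.6 ± 22.8 CPM (n = 4) and a range of 54.7 to 106 CPM, also lay above the ranges of glutamatergic and GABAergic neurons. Fibroblasts of sMCAO ipsi held 0.0798 times (0.0160 to 0.244) the endothelial level, from 3 UMIs. In vascular cells, astrocytes, OPCs, oligodendrocytes and microglia no Gas6 change was called.

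Pros1 rose in glutamatergic neurons, though its level there stayed low. It was counted at 0.634 and 0.906 CPM in Sham, 1.33 and 2.01 CPM in MCAO contra, and 4.64 and 5.24 CPM in MCAO ipsi, from 13, 13, 32, 29, 99 and 56 UMIs. The 3 groups did not overlap. The rise was 2.60 ± 0.32 on the log2 scale against Sham (6.04-fold, edgeR adjusted p = 0.00512) and 1.61 ± 0.28 against MCAO contra (3.06-fold, edgeR adjusted p = 0.0165). Without Sham L the first was 2.35 (edgeR adjusted p = 0.11), and without mMCAO contra or sMCAO contra the second was 1.33 or 1.88 (edgeR adjusted p = 0.172 and 0.101). Myeloid markers moved too in these neurons, at 12.0 and 12.8 CPM in Sham, 13.3 and 15.8 CPM in MCAO contra, and 34.4 and 19.0 CPM in MCAO ipsi, and Pros1 in microglia was at 135 to 175 CPM. With free RNA subtracted the rise against Sham was 3.78 (edgeR adjusted p = 0.0189) and that against MCAO contra was 1.84 (edgeR adjusted p = 0.0944). In neurons this step removed a myeloid profile only, at 0.189% to 0.507% of the UMIs of glutamatergic neurons. The profile was taken from the myeloid nuclei of the same library. In Sham L and Sham R these held 2 and 1 Pros1 UMIs, those of Sham L in 10 nuclei. The 3.78 against Sham is therefore no measure of size. RNA from astrocytes, oligodendrocytes and vascular cells was not subtracted. In GABAergic neurons Pros1 was at 1.96 and 2.36 CPM in Sham, 1.19 and 3.11 CPM in MCAO contra and 5.70 and 3.77 CPM in MCAO ipsi, and the differences of 1.09 ± 0.44 and 1.298 ± 0.43 were not called (edgeR adjusted p = 0.18 for both). That from MCAO contra was called without sMCAO ipsi (1.61, edgeR adjusted p = 0.022), and both were called with classes from clusters (1.38 and 1.596, edgeR adjusted p = 0.0323 and 0.0497).

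In oligodendrocytes Pros1 was at 15.9 and 6.10 CPM in Sham, 24.6 and 34.1 CPM in MCAO contra, and 51.0 and 72.7 CPM in MCAO ipsi, again without overlap between groups. It rose by 2.26 ± 0.41 on the log2 scale against Sham (4.80-fold, edgeR adjusted p = 0.0388), from 15 and 2 UMIs in Sham. This call was lost when any of 4 libraries was left out, Sham L (3.37, edgeR adjusted p = 0.249), Sham R (1.95, edgeR adjusted p = 0.287), mMCAO contra (2.27, edgeR adjusted p = 0.0997) and sMCAO contra (2.26, edgeR adjusted p = 0.097). The difference of 1.11 ± 0.32 from MCAO contra was not called (edgeR adjusted p = 0.247), except without mMCAO ipsi (1.35, edgeR adjusted p = 8.21e-05) and without the filter on low counts (1.07, edgeR adjusted p = 0.00755). Oligodendrocyte sub-cluster 8, which held 12.9% and 39.1% of the class in MCAO ipsi and at most 1.12% in a contralateral library, carried Pros1 at 132 CPM in the severe library, against 35.1 CPM in sub-cluster 2.

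Astrocytes held Pros1 at 71.7 and 47.4 CPM in Sham, 71.1 and 54.9 CPM in MCAO contra and 110.4 and 117 CPM in MCAO ipsi, above every other library in the infarcted hemispheres but not called (0.84 ± 0.34 and 0.78 ± 0.28, edgeR adjusted p = 0.114 and 0.0911). The difference from MCAO contra was called without mMCAO ipsi (0.80, edgeR adjusted p = 0.0391) and that from Sham with classes from clusters (0.99, edgeR adjusted p = 0.0481). OPCs held 46.2 and 0 CPM in Sham, 25.6 and 21.7 CPM in MCAO contra, and 60.4 and 59.4 CPM in MCAO ipsi, with no call. Microglia were at 174 and 148 CPM in MCAO contra and 135 and 175 CPM in MCAO ipsi, and the groups overlapped. In sMCAO ipsi microglia held 3.42 times (2.38 to 5.00) the Pros1 of macrophages and in mMCAO ipsi 1.63 times (0.900 to 3.19). Fibroblasts, with 162 ± 65.8 CPM (SD, n = 4), and microglia, with 158 ± 19.5 CPM (n = 4), were the classes with the highest Pros1 and did not differ beyond their spread.

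Moderate and severe infarction were 1 library each, so their ratios hold counting error only and were not tested. sMCAO ipsi had more Axl than mMCAO ipsi in OPCs (1.65-fold, 95% counting interval 1.14 to 2.44), astrocytes (1.44-fold, 1.12 to 1.89) and vascular cells (2.39-fold, 1.16 to 5.72). Mertk was lower in sMCAO ipsi in OPCs (0.318 times, 0.169 to 0.576), oligodendrocytes (0.179 times, 0.0816 to 0.361) and astrocytes (0.761 times, 0.653 to 0.888) and higher in microglia (1.22 times, 1.09 to 1.37). Tyro3 in glutamatergic neurons was at 1.004 times (0.884 to 1.14) and Gas6 at 1.02 times (0.899 to 1.16) the moderate level. Gas6 in endothelial cells was at 0.539 times (0.335 to 0.893), and Pros1 in oligodendrocytes at 1.43 times (1.01 to 2.03).

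Of 42 other genes of the pathway, 39 were found in the files. They comprise further bridging proteins and engulfment genes, other ligands described for Mertk, the enzymes of vitamin K-dependent carboxylation, the sheddases Adam10 and Adam17, nuclear receptors, the interferon receptor branch and signalling proteins at the receptor. In OPCs 3 of 20 tested were called between MCAO ipsi and Sham, beside 7.27% of all genes. The median log2 fold change was 0.19 over the tested genes against 0.02 over all genes. It was also 0.19, against 0.01 over all genes, between MCAO contra and Sham, so this shift was not confined to the infarcted hemispheres. Between MCAO ipsi and MCAO contra it was 0.12 against 0.01. In MCAO ipsi against Sham, Megf10, an engulfment receptor, rose by 1.95 ± 0.56 on the log2 scale (edgeR adjusted p = 0.0334). Dock1, an activator of Rac1, rose by 0.74 ± 0.20 (edgeR adjusted p = 0.021). The Sham libraries differed widely in Megf10, at 7.71 CPM in Sham L (1 UMI) and 87.7 CPM in Sham R (7 UMIs). MCAO contra was at 82.0 and 73.8 CPM, below Sham R, and MCAO ipsi at 105 and 203 CPM. Elmo1, the partner of Dock1, fell from 1395 and 1240 CPM in Sham to 814 and 576 CPM in MCAO ipsi (-1.01 ± 0.19, edgeR adjusted p = 0.00149). It was the only one of the 20 called against MCAO contra (-0.71 ± 0.18, edgeR adjusted p = 0.0119). That share of 5.0% was below the 9.51% of all genes called there.

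In astrocytes 5 of 21 (23.8%) were called against Sham, beside 16.4% of all genes, with a median of 0.03 against 0.01 over all genes. Megf10 rose through 138 and 171 CPM in Sham, 246 and 340 CPM in MCAO contra and 426 and 456 CPM in MCAO ipsi (1.505 ± 0.24 against Sham, edgeR adjusted p = 0.00156), with no overlap of the groups. Dock1 and Vav3, both guanine nucleotide exchange factors, rose by 0.74 and 1.09, and Elmo1 and Adgrb1, a phosphatidylserine receptor, fell by 1.91 and 0.88 on the log2 scale. Against MCAO contra 2 of 21 were called, Vav3 (1.14) and Adgrb1 (-0.87), a share of 9.52% that was below the 12.4% of all genes. In oligodendrocytes 0 of 25 and in vascular cells 0 of 19 were called against Sham, as were 0 of 23 in microglia against MCAO contra. Of all genes, 2.88%, 1.38% and 0% were called in these comparisons.

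In glutamatergic neurons 5 of 32 (15.6%) were called against Sham, beside 6.32% of all genes, with a median of 0.01 over the tested genes and over all genes alike. Lgals3, which encodes galectin-3, another ligand described for Mertk, rose from 0.146 and 0.209 CPM to 3.09 and 6.82 CPM (4.63 ± 0.54, edgeR adjusted p = 0.00477). In Sham it rested on 3 UMIs per library. Macrophage markers moved too in these neurons, from 2.88 and 2.23 CPM in Sham to 9.69 and 11.4 CPM in MCAO ipsi. The part of other cells' RNA in the Lgals3 and Socs3 of glutamatergic and GABAergic neurons was not tested. The nuclear receptor Pparg rose (1.63), as did the signalling suppressor Socs3, from 3 and 0 UMIs in Sham to 22 and 34 in MCAO ipsi, and Dock1 (-0.63) and Tub (-0.73), a further Mertk ligand, fell. Against MCAO contra 4 of 32 (12.5%) were called, beside 3.41% of all genes. Vav3 (0.75), Pparg (2.18) and Lgals3 (3.597) were higher and Adgrb1 (-0.74) lower. In GABAergic neurons 3 of 31 (9.68%) were called against Sham, all higher, beside 2.57% of all genes. They were Vkorc1 (0.96), which recycles vitamin K, Lgals3, with 1 and 1 UMIs in Sham and 10 and 16 in MCAO ipsi, and Socs3, with 0 UMIs in both Sham libraries and 16 and 34 in MCAO ipsi. Against MCAO contra, which held 0 and 2 Socs3 UMIs, Socs3 was the 1 gene of 31 called (3.23%), beside 0.675% of all genes. Between MCAO contra and Sham edgeR called 0 of the pathway genes in each class tested. These counts depended on the tool and the filter, since over all classes the 16 calls against Sham were 9 by DESeq2 and 32 without the filter on low counts.

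By the Pearson correlation of log2(CPM + 5) over 36 sums of class and library, the genes most like each of the 5 were taken from 13535 genes. The sums share libraries, depth and cell type, so the values are descriptions. Axl was nearest to F3 (0.94), Cpt1a (0.93), Vcam1 (0.93), Nhsl1 (0.91) and Atp1b2 (0.91), and Mertk to genes that include Per3 (0.95), Slc1a3 (0.94), Nhsl1 (0.93) and Pyroxd2 (0.93). Tyro3 was nearest to Pls1 (0.85), Trpc1 (0.83), Prickle2 (0.82), Sec14l5 (0.81) and Trim36 (0.80), and Gas6 to Slc23a2 (0.88), Tsc22d1 (0.87), Slc16a11 (0.85), Magi3 (0.84) and Dipk1b (0.84). The genes nearest to Pros1 included Syne2 (0.92), Parp9 (0.91), Nrf1 (0.91) and the gene ENSRNOG00000051408 (0.90).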

How the data were processed

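Nuclei of 6 libraries were sequenced with a droplet method. Per the labels and the submitters' processing notes, the authors counted UMIs per gene and nucleus with Cell Ranger 7.0.0 on mRatBN7.2, intronic reads included, and the deposited values are these raw counts. Nuclei under 500 UMIs, outside 250 to 5000 genes or over 5% mitochondrial counts were dropped, as in the study, and so were the 5% per library that scored highest against simulated doublets. A nucleus entered a class when its marker UMIs passed a density per 10000 UMIs (OPC 15, oligodendrocyte 30, astrocyte 30, myeloid 25, endothelial 20, mural 15, fibroblast 15, ependymal 25, neuron 80), with at least 3 UMIs of 2 markers and a gap of 2 to the next class. Of 69967 nuclei, 4.04% passed several gates, 4.80% passed none, and 16.2% of OPCs and 5.15% of astrocytes lay within 1.25 times their gate. Gate densities were set after marker densities were seen, and the members, lists and classes were chosen with earlier results of these data known.

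Counts were summed per class and library (at least 20 nuclei) and fitted with edgeR 4.0.16 (R 4.3.3; filterByExpr, TMM, quasi-likelihood, all groups in 1 fit with 3 residual degrees of freedom), with Benjamini-Hochberg adjustment over all genes of the class. The thresholds of a call were 0.05 for the adjusted p and 0.6 for the log2 fold change in either direction. Class differences were interactions with library as a block. Intervals are exact (95%; Poisson, conditional binomial for ratios, Clopper-Pearson for shares) and cover counting error only, as does the limit of 3 counts for a count of 0. Named were all 5 genes, called pathway genes (at most 6 per class and comparison) and, for each of the 5, the 5 genes with the highest correlation. Clusters came from scanpy 1.11.5 (3000 variable genes, 30 components, 15 neighbours, resolution 1). Hemispheres of the same rats pair the MCAO libraries, and deviations of paired libraries correlated at -0.08 to 0.11 over the classes. Alternatives were DESeq2 1.42.0, no filter, only the libraries of both groups, each library left out, a stricter gate, doublets kept, classes from clusters, subtraction of a free RNA profile, the rat pool as a block and, chosen after seeing the data, leaving out nuclei with cell-cycle UMIs. The free RNA profile held neuronal and myeloid RNA only, scaled by markers of these cells. The neuronal part was not subtracted in neurons, nor the myeloid part in microglia and macrophages. Scripts were tested on simulated data. Promoters are RefSeq's, build GRCr8, found for 5 of 5 genes. Some genes of the pathway list were not analysed here, and some genes that the naming rule selects are not reported here.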

Additional observations from a re-analysis of the deposited data

Results flagged for a closer look

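The change of Axl differed between OPCs and astrocytes in a test of the difference itself. In MCAO ipsi against MCAO contra the change in OPCs exceeded that in astrocytes by 2.85 on the log2 scale (SE 0.54, edgeR interaction, adjusted p = 0.00202), and in MCAO ipsi against Sham by 7.63 (SE 1.69, edgeR interaction, adjusted p = 0.00525). The second value is no measure of size, since Sham OPCs held 0 Axl UMIs and a fitted change from 0 depends on the prior count. In MCAO ipsi against MCAO contra, OPCs were not separated from oligodendrocytes (0.79, SE 1.89, edgeR interaction, adjusted p = 0.961). Nor were they from glutamatergic neurons (2.49, SE 1.19, edgeR interaction, adjusted p = 0.329).

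Nuclei that entered no class, or passed several gates, carried Axl and Pros1 above the level of Sham. Axl was at 43.0 CPM in mMCAO ipsi and 113 CPM in sMCAO ipsi, against 8.95 and 7.13 CPM in Sham L and Sham R and 10.3 and 10.4 CPM in MCAO contra. Pros1 was at 60.3 and 63.9 CPM in MCAO ipsi, against 14.1 and 14.9 CPM in Sham and 11.7 and 20.7 CPM in MCAO contra. These nuclei held 28.1% and 31.9% of the Axl UMIs of mMCAO ipsi and sMCAO ipsi.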

How the results depend on the processing

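Of 1002 alternative values over 73 results, 970 kept their side of the threshold, 16 lost and 16 gained a call. The sign changed in 95, all of results that were not called, and the 8 called results kept their direction. Axl in OPCs and Mertk in astrocytes were called in every alternative that could be computed for MCAO ipsi against Sham (13 and 14) and against MCAO contra (14 and 15), except that Axl in OPCs could not be tested without the nuclei bearing cell-cycle UMIs. Mertk in OPCs against MCAO contra lost its call under DESeq2 (-1.21), with only the libraries of the 2 groups (-1.32), with free RNA subtracted (-2.64) and without nuclei bearing cell-cycle UMIs (-1.09). With only the libraries of the 2 groups, Pros1 lost its call in oligodendrocytes against Sham (2.27) and in glutamatergic neurons against MCAO contra (1.60), the latter also with free RNA subtracted (1.84). The cause was not tested. With classes from clusters the fitted change of Axl in OPCs against Sham was 4.404. Leaving out 1 library at a time gave 7.49 to 8.504 and 3.08 to 3.79 for Axl in OPCs, -1.39 to -0.96 and -1.48 to -1.05 for Mertk in astrocytes, -2.24 to -0.54 for Mertk in OPCs against MCAO contra, 1.90 to 3.37 for Pros1 in oligodendrocytes, and 2.35 to 2.83 and 1.33 to 1.88 for Pros1 in glutamatergic neurons. The 4 calls against Sham became 8 with classes from clusters and 2 to 7 with a library left out. The 4 against MCAO contra became 2 with only the libraries of the 2 groups, with free RNA subtracted or without nuclei bearing cell-cycle UMIs, and 2 to 9 with a library left out, and the 0 calls of MCAO contra against Sham stayed at 0. Among pathway genes, 16 calls against Sham became 9 by DESeq2 and 32 without the filter, 8 against MCAO contra became 5 and 16, and 0 became 1 without the filter for MCAO contra against Sham. With the rat pool as a block the pathway count was 12 and 4 pairs of gene and class were called, Axl in OPCs at 3.37, and the pairing changed no call of the 5 genes. With classes from clusters the mean level was 846.9 CPM for Mertk in Sham astrocytes, 122 CPM for Tyro3 in MCAO ipsi oligodendrocytes and 34.5 CPM for Gas6 in MCAO ipsi glutamatergic neurons, and with doublets kept 5.75 CPM for Pros1 in the latter. Without thinning the mean share was 13.8% for Axl in MCAO ipsi OPCs, 42.2% for Mertk in MCAO ipsi astrocytes and 45.0% in Sham astrocytes. Depth limits Axl and Tyro3 in OPCs and all genes in Sham microglia.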
